A study of Sinonovacula constricta with 18 samples.

Results

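The isoform clusters whose level in FPKM moved least across adult razor clam tissues are described here as candidate reference transcripts on that scale. They are 200 of the 32250 clusters in the files and were chosen on the measured values themselves. The rule used FPKM, a read density corrected for transcript length and for the total of the library. A cluster needed at least 5 FPKM in all 18 libraries and a mean between 10 and 200. The 3751 clusters that met this were ranked by the standard deviation (SD) of log2 FPKM over the 18 libraries, and the first 200 were taken. With other scalings of the libraries, described below, the same rule chose 12 and 8 of these 200 again. The minimum alone was met by 4149 clusters, of which 96 had a mean under 10 and 302 a mean over 200.

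The eyeless razor clam *Sinonovacula constricta* is a burrowing bivalve, and the study behind these libraries asked where in its body light-sensing opsins are expressed. The libraries came from 6 tissues of healthy adults, namely gill, labial palp, siphon, mantle, foot muscle (called foot) and intestine, with no treatment. There were 3 libraries per tissue, each from RNA pooled over 3 individuals. The library totals lay between 9982441 and 17970120 estimated reads, with a median of 11471648. Whether libraries with the same replicate number came from the same animals is not stated in the sources used here, and the spread between libraries may be partly technical.

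A reference transcript is one whose level is held to be about equal in every sample, so that the levels of other genes can be expressed relative to it. Genes of protein synthesis, the cytoskeleton and basic metabolism are commonly used in this way in bivalves, although muscle, ciliated gill epithelium and digestive epithelium use many of them unequally. An isoform cluster is a transcript sequence built by grouping long reads that appear to come from the same molecule type. The files give clusters an ID and no gene name, so no role is given to any of them, and no tissue label could be checked against marker genes. In tissue libraries a lower level can come from fewer cells that use a gene or from less of its RNA per cell, and these cannot be told apart.

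The cluster of rank 1, i2_ICE_sample8a197f|c41218/1/2553, had the lowest spread, with an SD of 0.14 on log2 FPKM. Its FPKM was 48.8, 45.1 and 47.2 in the siphon, 44.9, 51.7 and 43.0 in the gill, 52.7, 40.0 and 46.5 in the mantle, 50.5, 52.5 and 49.5 in the intestine, 46.3, 44.5 and 44.6 in labial palp, and 60.1, 44.8 and 49.6 in the foot for replicates 1, 2 and 3. The highest value, in foot replicate 1, was 1.50 times the lowest, in mantle replicate 2, and every tissue overlapped at least some of the others. The tissue means lay between 45.1 ± 1.03 FPKM in the labial palp and 51.5 ± 7.83 FPKM in the foot (SD, n = 3 libraries each), a range smaller than the spread inside the foot.

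The cluster of rank 2, i3_ICE_sample8a197f|c3988/1/3793, was at 38.2, 37.2 and 45.0 FPKM in the siphon, 38.8, 45.2 and 40.9 in the gill, 40.1, 32.5 and 39.4 in the mantle, 40.4, 46.2 and 40.2 in the intestine, 39.0, 36.6 and 37.8 in labial palp, and 48.8, 36.6 and 46.1 in the foot. Like rank 1 it was highest in foot replicate 1 and lowest in mantle replicate 2, and its SD was 0.15 on log2 FPKM. The cluster of rank 3, i1_ICE_sample8a197f|c43013/1/1959.1, was more abundant. It was at 107.2, 113.4 and 105.0 FPKM in the siphon, 121.6, 113.3 and 108.0 in the gill, 98.8, 115.3 and 147.9 in the mantle, 129.5, 146.7 and 109.0 in the intestine, 121.0, 123.4 and 111.3 in labial palp, and 108.5, 108.8 and 128.1 in the foot. Its highest and lowest libraries were both mantle libraries, replicates 3 and 1, so its widest difference lay inside a single tissue.

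**Figure D1:**
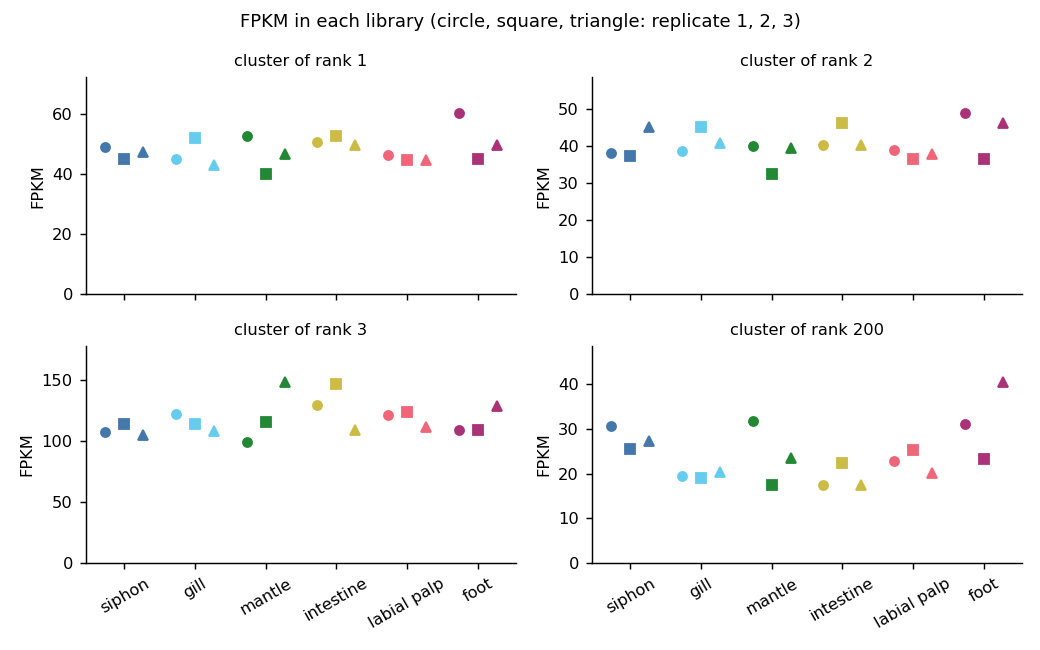
FPKM (vertical axes, from 0) of the clusters of rank 1, 2, 3 and 200 in each of the 18 libraries, grouped by tissue, with a marker shape for each replicate number. The highest library is 1.50 times the lowest in each of the first 3, while the cluster of rank 200 spans 17.4 to 40.4 FPKM and is highest in foot replicate 3.

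At the other end, the cluster of rank 200 had FPKM of 30.6, 25.4 and 27.2 in the siphon, 19.5, 19.0 and 20.3 in the gill, 31.8, 17.4 and 23.5 in the mantle, 17.4, 22.4 and 17.5 in the intestine, 22.7, 25.3 and 20.2 in labial palp, and 31.1, 23.2 and 40.4 in the foot. The SDs just inside the limit of 200 were 0.3432 and 0.3435 at ranks 199 and 200, and those just outside were 0.3438 and 0.3440 at ranks 201 and 202. Members and non-members at the limit thus differed in the fourth decimal. Tissue accounted for 42.1% and 56.4% of the sum of squares at ranks 199 and 200, and for 92.7% and 21.2% at ranks 201 and 202. The cluster of rank 201 was highest in the intestine at 81.1 ± 5.81 FPKM and lowest in the foot at 38.6 ± 3.10 FPKM (SD, n = 3).

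Over the 200 members the SD of log2 FPKM had a median of 0.30 and quartiles of 0.26 and 0.32, against a median of 0.66 in the other 3551 clusters that met the level rule. The highest library was 2.09 times the lowest in the median member and 2.94 times in the widest, against 4.98 times in the median of the others. Over all 18 libraries, 68 of the 200 members and 1 of the 3551 others stayed under 2-fold. These values chose the members and are given as a description only.

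Counting error was a small part of this spread. The fewest estimated reads of a member in any library ranged from 63 to 3607 with a median of 399. In some library 7 members (3.5%) fell under 100, against 550 of the 3551 others (15.5%). An SD of 0.06 on log2 would be expected from counting alone in the median member. The observed SD was at most 2 times the counting SD in 5 members (2.5%) and in 2 of the 3551 others (0.06%), a difference that the choice by a low SD favors. This expectation covers counting error only.

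**Figure D2:**
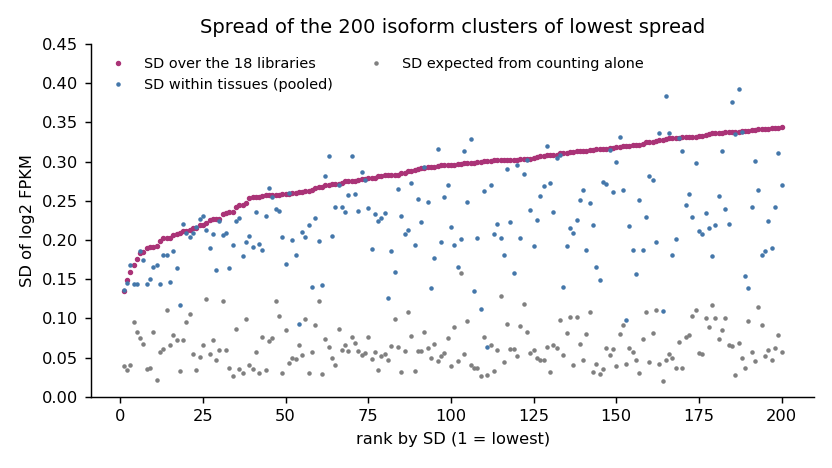
SD of log2 FPKM (vertical axis) against rank (horizontal axis) for the 200 clusters, with the SD over all 18 libraries, the pooled SD within tissues and the SD expected from counting alone. The counting SD lies between 0.02 and 0.16, below the SD over all libraries, which runs from 0.14 to 0.34.

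The SD of single libraries inside tissues was about as large as the SD of the tissue means. These measures are unlike, because a mean of 3 libraries varies less than a single library. Equal values therefore do not mean equal variation within and between tissues. The pooled SD within tissues had a median of 0.22 and the SD of the 6 tissue means one of 0.22 in members, against 0.41 and 0.56 in the others. The SD within tissues was larger than the SD of the tissue means in 105 of the 200 members and in 1045 of the 3551 others (29.4%). Of the sum of squares, tissue took a median of 53.9% in members and 70.8% in the others, where a share of 29.4% corresponds to the degrees of freedom of tissue. Replicate number took a median of 11.7% in members and 8.49% in the others, and the remainder 29.3% and 15.9%. The degrees of freedom of replicate number correspond to 11.8%. Because tissue took more than its own 29.4%, less was left for replicate number, so 11.8% is no baseline for it here. All 6 tissue means lay within 1.5-fold in 105 members and within 2-fold in 200, against 85 and 703 of the 3551 others, which the limit on the SD largely sets.

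Among the 3 libraries of a tissue, members were tightest in the siphon, with a median SD of 0.15, and widest in the mantle and the foot, at 0.24 and 0.21. The other clusters were also widest in the mantle and the foot, at 0.41 and 0.40. Mantle replicate 1 was the highest library for 30 members (15.0%), against 13.0% of the others, and mantle replicate 2 the lowest for 26 (13.0%), against 5.89%. Foot replicate 2 was the lowest library for 56 members (28.0%) and the highest for 0, against 31.9% and 1.94% of the others.

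On the FPKM scale the members leaned the same way as the other clusters, by less. The median deviation of members from their own mean was -0.14 on log2 in the foot and -0.10 in the siphon. It was 0.10 for the labial palp, 0.08 for the intestine and 0.06 for the gill. Medians of the other clusters were -0.54 for the foot and -0.32 for the siphon, with 0.30 for the labial palp, 0.24 for the intestine and 0.27 for the gill. By tissue mean the foot was the lowest of the 6 in 79 members (39.5%) and 53.2% of the others, and the labial palp was the highest in 48 (24.0%) and 21.9%. Foot replicate 2 lay lowest, with a median of -0.27 in members and -0.71 in the others.

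FPKM is relative to the reads of the whole library, so by its construction it also depends on the share that all other transcripts take. The trimmed mean of M-values (TMM), an alternative scaling, sets libraries level on the clusters with middling ratios between libraries. Its factors ran from 0.51 in foot replicate 2 to 1.42 in labial palp replicate 1. The 3751 clusters at these levels together held 15.0% to 17.2% of the summed FPKM in the foot, 18.3% to 19.3% in the siphon and 20.5% to 23.9% in the other 4 tissues. The 200 members held between 0.88% and 1.11% in every library, a narrow range that follows largely from their choice by a low SD of FPKM.

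On TMM-scaled FPKM the order of the tissues turned round. All 200 members lay above their own mean in the foot, with a median of 0.54 on log2 where it was -0.14 on FPKM, and 194 did so in the siphon, with a median of 0.29. In the labial palp 1 of 200 lay above, in the gill 4 and in the intestine 19, with medians of -0.33, -0.31 and -0.22. The mantle stayed near 0, at 0.02. With DESeq2 size factors in place of TMM the medians were 0.56 in the foot, 0.31 in the siphon and -0.36 in the labial palp, and 200, 198 and 0 members lay above their mean. By mean log2 level the foot was above the labial palp in 200 of the 200 members on the TMM scale and with DESeq2 size factors. On FPKM it was above in 51, so the direction of the other 149 turned with the scaling. TMM factors were 0.51 to 0.73 in the foot and 1.30 to 1.42 in the labial palp. Tissue means of members spanned at most 1.88-fold on FPKM, so this count follows from the rule and the factors. The counts on these scales are a description only. In the other clusters the TMM-scale medians were 0.14 in the foot, 0.07 in the siphon and -0.13 in the labial palp.

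**Figure D3:**
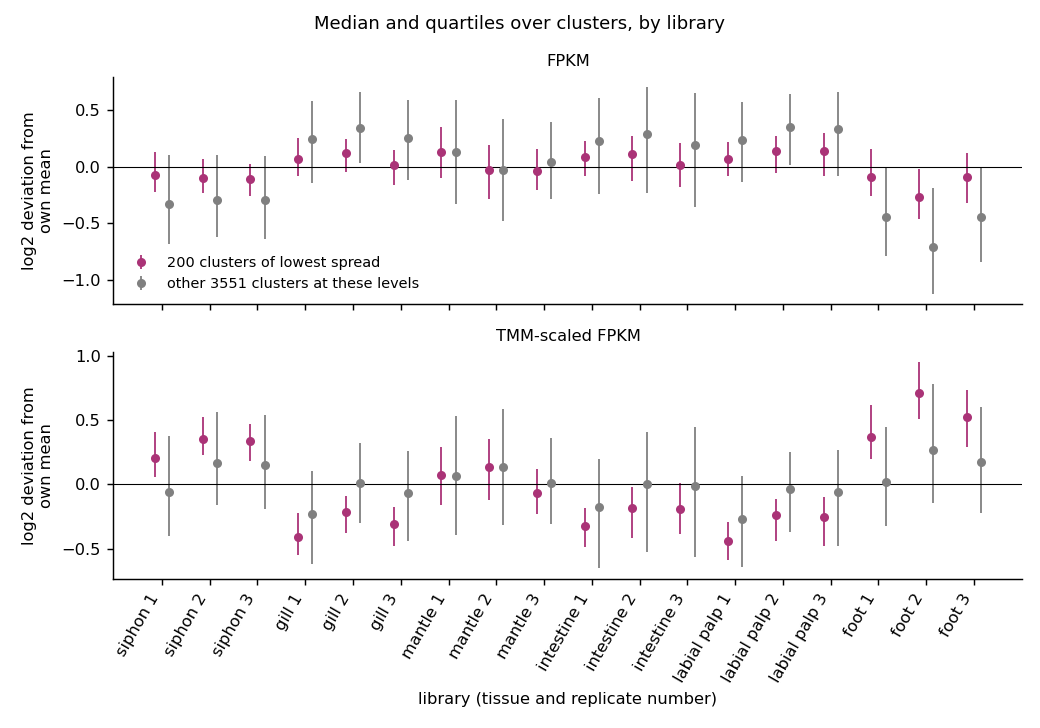
Log2 deviation of clusters from their own mean over the 18 libraries (vertical axes), by library, as median (point) and quartiles (bar) for the 200 clusters of lowest spread and the other 3551 clusters at these levels, on FPKM (top) and on TMM-scaled FPKM (bottom). On FPKM the 200 clusters stay within -0.27 and 0.14 by median, and on the TMM scale their medians lie above 0 in all foot and siphon libraries and below it in all gill, intestine and labial palp libraries.

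For the cluster of rank 1, the TMM-scaled FPKM was 82.7, 88.0 and 75.7 in the foot and 59.2, 62.0 and 64.2 in the siphon, but 32.6, 34.1 and 34.0 in the labial palp and 32.4, 41.1 and 34.3 in the gill. Its foot and labial palp libraries no longer overlapped, and its SD was 0.47, where it was 0.14 on FPKM. The median SD of members was 0.43 on the TMM scale and 0.44 with DESeq2 size factors, against 0.59 on both scales in the other clusters. Scaling by TMM lowered the SD of 24 of the 200 members and of 2269 of the 3551 others (63.9%).

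When the rule was applied to TMM-scaled FPKM, 12 of the 200 members were chosen again, and 8 were with DESeq2 size factors. The clusters chosen on the TMM scale had a median SD of 0.23 there and 0.50 on FPKM, and their median FPKM deviation was -0.66 in the foot and 0.43 in the labial palp. The 8 members chosen on all 3 scales had ranks between 54 and 194 on FPKM, and none of the first 53. Among them the cluster of rank 107, also the member with the longest implied length, had the lowest TMM-scale SD of the 200, at 0.19. Its TMM-scaled FPKM was 28.7, 30.9 and 30.9 in the foot, 24.0, 27.4 and 24.2 in the siphon, 21.2, 22.3 and 23.0 in the gill, 24.8, 23.0 and 22.7 in the mantle, 20.5, 22.3 and 22.8 in the intestine, and 19.9, 21.6 and 25.8 in labial palp. Even so, its foot libraries lay above all others on that scale. On FPKM its foot libraries were at 20.9, 15.7 and 20.2, and its labial palp libraries were higher, at 28.2, 28.2 and 33.9.

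**Figure D4:**
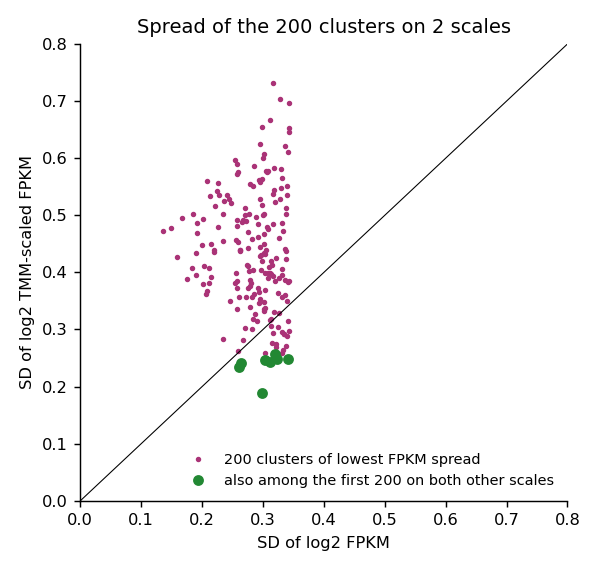
SD of log2 TMM-scaled FPKM (vertical axis) against SD of log2 FPKM (horizontal axis) for the 200 clusters, with a line of equality and the 8 clusters chosen on all 3 scales marked. Of the 200 points, 24 lie below the line.

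Geometric means over members were also taken by library. The geometric mean of the first 10 ran from 32.6 FPKM in mantle replicate 2 to 42.1 in intestine replicate 2, an SD of 0.09 on log2 where the median of the 10 taken singly was 0.18, and that of all 200 from 22.9 in foot replicate 2 to 29.6 in labial palp replicate 3, an SD of 0.10. On the TMM scale the geometric mean of the first 10 ran from 25.8 in labial palp replicate 1 to 66.6 in foot replicate 2, with an SD of 0.43 where the median of the 10 singly was 0.45, and that of all 200 had an SD of 0.36, where it was 0.43 singly.

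Deviations on log2 FPKM were then taken in libraries that the choice had not used. With each library left out in turn, the rule on the other 17 kept between 161 and 193 of the 200 members, with a median of 188. In the library left out, the median absolute deviation of the re-chosen 200 clusters from their mean in the 17 lay between 0.18 and 0.42 on log2. It was 0.35 to 0.91 in the other clusters at these levels, and it was lower for the re-chosen clusters in 18 of 18 libraries. Each choice still used the other libraries of the same tissue and of the same replicate number, so this is a description and no independent check. Between 173 and 200 of the 200 stayed within 2-fold. The lowest shares were 86.5% in mantle replicate 1 and 92.5% in foot replicate 2, against 80.0% and 55.6% of the other clusters.

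**Figure D5:**
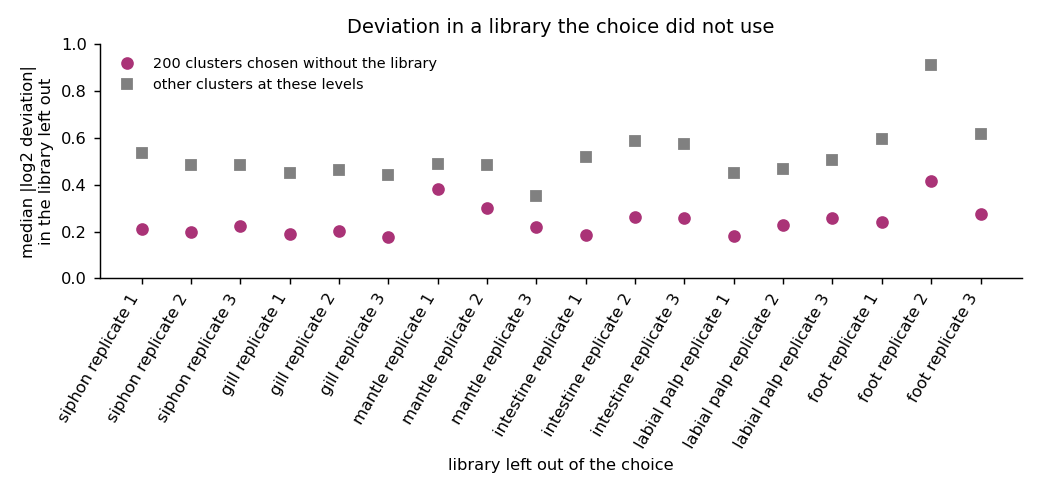
Median absolute log2 deviation in FPKM (vertical axis) in each library when it was left out of the choice (horizontal axis), for the 200 clusters chosen on the other 17 libraries and for the other clusters that met the level rule. The 200 clusters lie below the others in every library, and highest in foot replicate 2, at 0.42, and mantle replicate 1, at 0.38.

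With a whole tissue left out, 136 members were kept without the foot, 141 without the mantle, 148 without the intestine, 172 without the gill, 173 without the siphon and 179 without the labial palp. Clusters chosen without the foot had a median deviation of -0.39 on log2 there, and 189 of 200 had a foot mean within 2-fold. The other clusters had a median of -0.74, and 62.8% were within 2-fold. Among the 3 libraries of the tissue left out, the re-chosen clusters had a median SD of 0.32 in the mantle, and of 0.16 to 0.23 in the other 5 tissues. With the 6 libraries of a replicate number left out, 140, 144 and 146 members were kept without numbers 1, 2 and 3. Over the 6 libraries left out, the re-chosen clusters had a median SD of 0.31, 0.34 and 0.29, against 0.63 to 0.73 in the others. All of these left-out values are on FPKM, whose scale the choice shares.

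Tests across all clusters are given beside the members for completeness, since the rule used the same libraries and nothing is read from them. On counts with TMM scaling, 121 of the 200 members passed an adjusted p of 0.05 for a difference among the 6 tissues, where 24.3% of the 29930 clusters tested did (edgeR quasi-likelihood test, Benjamini-Hochberg adjustment over all tested). The foot had the highest TMM-scaled mean in 99 of the 121, in 65 of the 79 members that did not pass and so in 164 of all 200. The tissue means of the 121 spanned a median of 2.29-fold on that scale and 1.45-fold on FPKM. Without foot replicate 2, 79 of 200 re-chosen clusters passed, where 22.3% of the clusters tested did. DESeq2 called 186 members, where 38.3% of the clusters it tested passed. On log2(FPKM + 0.1), limma called 36 of the 200, where 39.8% of the clusters passed, and the foot was the lowest tissue in 17 of these 36. Of these 36, 18 were also called by edgeR, which called 121 of all 200 members. The overlap over all clusters was not taken, and nothing is read from this count.

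In the test of replicate number that also fitted tissue, 6 of the 200 members passed 0.05 (edgeR), where 17.7% of the clusters did. Of these 6 members, the 3 with the lowest ranks were at ranks 40, 132 and 148. Both this test and that among tissues were passed by 0 of the 200 members and by 150 of the 3551 others (4.22%). Nothing is read from this count. DESeq2 called 46, where 30.9% of the clusters it tested passed. Without the 3 mantle libraries edgeR called 27 members, where 33.2% of the clusters passed. With single libraries left out and the 200 chosen anew, the number was 19 without mantle replicate 1, where 26.7% of the clusters passed, and 13 without mantle replicate 3, where 23.3% did. It was 1 to 3 without any single siphon, gill, labial palp or foot library or intestine replicate 1 or 2, where 9.21% to 13.7% of the clusters passed.

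After the tissue mean was removed, libraries with the same replicate number correlated across the 200 members in the 5 tissues other than mantle, with a median coefficient of 0.41 over 30 pairs and a range of 0.10 to 0.70. In the other clusters the median was 0.66. The 15 pairs with a mantle library had a median of 0.00 in members and 0.01 in the others. These are descriptions across clusters, which share libraries and are not independent replicates.

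Length and long-read support, which entered the rule only through FPKM or not at all, are given with no test. The number at the end of an ID is read here as the length of the cluster sequence. The counts and FPKM together imply the length that was counted over. For IDs without a suffix (a point and a number after the length) the implied length was a median of 86.7% of the ID length, but for IDs with a suffix 29.6%, so the ID length of suffixed clusters was not used. The member with the longest ID length, i13_ICE_sample8a197f|c0/1/13889.1, had an implied length of 1142 bases, against 13889 in its ID. A suffix was carried by 18 of the 200 members (9.0%), against 679 of the 3551 others (19.1%) and 42.7% of all clusters. Of these 18, 6 had other listed clusters with the same stem, 8 in all, and none of those was a member.

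The 182 members without a suffix had a median ID length of 2098.5 bases, from 864 to 6343, against 2126.5 in the 2872 others without one. Implied lengths of all members ran from 299 to 5042 bases with a median of 1744, against a median of 1656 in the others. The share chosen was 1.69% (4 members) of the 237 clusters with an implied length under 500 bases and 6.70% of the 597 with 3000 or more. It was 4.84% from 500 to 1000 bases, 5.44% from 1000 to 2000 and 5.49% from 2000 to 3000, against 5.33% of all 3751. The second number of the ID is read here as the count of full-length reads behind a cluster, which the sources used here do not state. It was 1 in 134 of the 200 members and 10 or more in 21 (10.5%), against 72.1% and 6.81% in the others.

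Members covered the whole range of levels allowed. The member with the highest mean, at rank 42, averaged 199.9 FPKM and lay between 135.8 in siphon replicate 1 and 261.1 in intestine replicate 3. The member with the lowest mean, at rank 38, averaged 10.01 FPKM, between 7.71 in mantle replicate 2 and 13.3 in intestine replicate 3. The shortest by implied length, at rank 105, lay between 33.0 FPKM in mantle replicate 1 and 82.9 in gill replicate 3. By mean FPKM, 79 members were between 10 and 20, 78 between 20 and 50, 27 between 50 and 100, and 16 above that. These were 6.97%, 4.63%, 4.17% and 5.57% of the clusters in each range.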

How the data were processed

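For each of 18 libraries the authors deposited 2 values per cluster, an estimated count, not normalized, and an FPKM, over the same 32250 isoform clusters. The submitters' processing notes name RSEM, Bowtie2 and DESeq 1.10.1, and the labels name an Illumina library kit. How the clusters were built and filtered is not given in the sources used here. For the rule, the deposited FPKM was used as it stands, with no pseudocount. The members, the rule and the tests were chosen with earlier results of these data known.

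Estimated counts were rounded, and clusters whose reads over all libraries came to 10 or more (29930) were tested with edgeR 4.0.16 (R 4.3.3, TMM, threshold 0.05), among tissues and by replicate number. DESeq2 1.42.0, limma 3.58.1 with trend and another filter, scaling or left-out library were alternatives. The edgeR and ranking steps were tested on simulated data. TMM-scaled FPKM is FPKM divided by the TMM factor. Implied length is the length at which count, library total and FPKM fit each other, its median over libraries with an FPKM of at least 5. A left-out FPKM under 0.01 was set to 0.01. The counting SD is that of a Poisson count. Named clusters were ranks 1 to 3, the 4 ranks at the limit, and the members highest and lowest in mean FPKM and in length.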

Additional observations from a re-analysis of the deposited data

How the results depend on the processing

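Of the 200 members, 12 were kept on TMM-scaled FPKM, 8 on DESeq2-scaled FPKM and 55 when ranked by the SD within tissues. The median SD of the set chosen was 0.30 on FPKM, and 0.2329 with TMM and 0.2318 with DESeq2 size factors. The other rankings kept 154 with a minimum FPKM of 10, 165 with no window on the mean, 200 with a minimum of 1, 192 with log2(FPKM + 1), 162 by highest over lowest FPKM and 180 by coefficient of variation. Of the 200 members, 121 were called among tissues with edgeR, 186 with DESeq2 and 36 with limma on log2(FPKM + 0.1). Of all clusters tested, 7284 (24.3%), 10971 (38.3%) and 11902 (39.8%) were called. By replicate number, members called numbered 6 with edgeR, 46 with DESeq2 and 27 without the mantle libraries. Clusters called numbered 5305 (17.7%), 8903 (30.9%) and 9868 (33.2%) of those tested. With 1 library left out, members kept lay between 161 and 193 (140 to 146 with all 6 libraries of a replicate number left out). The 200 clusters chosen anew had a median SD between 0.27 and 0.30 (0.26 to 0.29). Of these 200, between 79 and 125 were called among tissues and between 1 and 19 by replicate number. Of the 29834 to 29907 clusters tested, between 6435 and 7062 and between 2751 and 7987 were called. The cause of these shifts was not tested. The replicate block called 142 of the 200 members and 9556 of the 29930 clusters tested among tissues and moved no count by over 1.5 times. Over the other 3551 clusters, same-numbered pairs correlated by 0.16 to 0.83 in 30 of 30 pairs without mantle and by at most 0.0996 in the 15 with it. The numbers thus tied libraries of 5 tissues but not of mantle, and the block over all 6 stayed an alternative.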
